A study of Mus musculus with 2 samples.

Results

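The choice between the absorptive and the secretory lineage of the intestinal epithelium is governed by Notch signalling and by Atoh1, and the genes described here are 10 of its regulators: Notch1, Notch2, Dll1, Dll4, Jag1, Hes1, Atoh1, Gfi1, Spdef and Neurog3. They were taken by symbol from the 32285 genes that both count tables list, and all 10 were detected. Intestinal epithelial cells of wild type (WT) littermates were compared with those of mice that carried an MG53 transgene (MG53-TG). MG53, also called TRIM72, is a membrane repair protein of muscle, and the transgene overexpresses it globally rather than in the gut alone. Both groups had received 2.5% dextran sulfate sodium (DSS), which injures the gut lining, and were sampled on day 7, so that no library is free of injury. Live EpCAM+ cells (7-AAD-) were sorted from crypts and captured with the 10x Genomics 3′ kit. Each genotype is represented by 1 library. The labels do not state how many mice a library holds, whereas the study's legend counts several mice per group. There was no replicate check, every difference below is between 2 libraries, and intervals, all at 95%, cover counting error only.

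Notch receptors are switched on by Delta and Jagged ligands on neighbouring cells, upon which the receptor is cut and its inner part enters the nucleus with the DNA-binding protein RBPJ to activate genes such as Hes1. Hes1 represses Atoh1, so a cell that receives the signal keeps to the stem or absorptive fate, whereas a cell that escapes it expresses Atoh1, turns secretory and presents Delta ligands to its neighbours, a process known as lateral inhibition. Gfi1 and Spdef act downstream of Atoh1 in goblet and Paneth cells, and Neurog3 commits a progenitor to the hormone-producing enteroendocrine lineage.

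The bases directly before an annotated start of the 4 factor genes are shown because the comparison of the libraries turns on these genes, which were all higher in MG53-TG in the summed epithelium. They are RefSeq sequences of build GRCm38.p6, written 5′ to 3′ on the strand of the gene and ending just before that start or, for Spdef, just before the annotated exon bases that precede it: chr6:64728875-64729124 on the plus strand for Atoh1, chr5:107724344-107724593 on the minus strand for Gfi1, chr17:27728956-27729201 on the minus strand for Spdef and chr10:62132840-62133089 on the plus strand for Neurog3. Capitals mark TGGGAA, the core letters that RBPJ binds, in Spdef, and CAGCTG, an E-box of the kind bound by basic helix-loop-helix factors, in Neurog3. For Gfi1 the start is the inner of 2 annotated ones and lies within the gene, since the window of the outer start is covered by exons of A430072P03Rik and Gfi1 and is not shown.
Atoh1: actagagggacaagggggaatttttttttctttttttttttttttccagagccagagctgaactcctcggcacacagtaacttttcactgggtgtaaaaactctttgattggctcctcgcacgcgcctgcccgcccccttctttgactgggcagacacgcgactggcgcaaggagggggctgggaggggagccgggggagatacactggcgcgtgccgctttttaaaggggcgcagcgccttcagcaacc
Gfi1: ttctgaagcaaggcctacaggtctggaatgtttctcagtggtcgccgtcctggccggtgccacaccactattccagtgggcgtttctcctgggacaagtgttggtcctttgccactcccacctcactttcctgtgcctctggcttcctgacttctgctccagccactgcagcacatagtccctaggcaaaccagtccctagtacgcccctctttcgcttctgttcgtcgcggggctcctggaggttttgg
Spdef: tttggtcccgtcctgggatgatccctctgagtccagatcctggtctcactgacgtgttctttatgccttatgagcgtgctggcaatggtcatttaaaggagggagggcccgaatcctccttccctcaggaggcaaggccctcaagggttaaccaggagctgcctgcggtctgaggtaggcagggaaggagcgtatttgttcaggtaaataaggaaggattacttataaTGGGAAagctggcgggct
Neurog3: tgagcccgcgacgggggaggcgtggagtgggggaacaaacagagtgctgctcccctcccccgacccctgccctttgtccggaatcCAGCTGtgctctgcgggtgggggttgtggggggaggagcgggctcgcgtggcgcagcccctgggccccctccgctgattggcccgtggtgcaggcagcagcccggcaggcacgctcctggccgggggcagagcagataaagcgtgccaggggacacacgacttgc

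Both strands of the 250 bases before each RefSeq start were searched for these motifs and for CACNAG, the letters of the N-box bound by Hes repressors. Of the 27025 genes in the RefSeq table, 24.1% held TGGGAA, 14.7% CAGCTG and 40.1% CACNAG. Of the 9 members in the table, Spdef held TGGGAA, which begins 22 bases before its RefSeq start (the last 4 of these bases are annotated as exon and are not shown above), and 3 held CAGCTG, namely Dll1, Jag1 and Neurog3. The matches of Dll1 and Jag1 lie in annotated exons and that of Neurog3 does not. CACNAG was found before Notch1, Notch2 and Dll4, and none of these letters before Atoh1 or Gfi1. No window of a member held more than 1 match, and a match is a description of the letters, not a binding site. Hes1 has no entry. Dll1 and Gfi1 have 2 starts each.

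After filtering, 6119 epithelial cells with 106041896 UMIs (unique molecular identifiers, counts of captured RNA molecules) remained in WT and 4606 cells with 89935487 UMIs in MG53-TG, at medians of 15666 and 18654.5 UMIs per cell. Levels are given as CPM, the UMIs of a gene per 1e6 UMIs of the summed cells, so that levels of different genes are not compared. Trim72, which encodes MG53, had 0.594 CPM in WT against 50.8 CPM in MG53-TG. Both libraries also held T cells, 576 in WT and 228 in MG53-TG, in spite of the EpCAM sort, with 13 T cell markers detected of 13 listed, and these serve as a type that should lack Atoh1. The mitochondrial limit removed 3755 of 11156 barcodes from WT and 4402 of 9555 from MG53-TG, and 8 barcodes occurred in both libraries. The count tables were made with different versions of Cell Ranger, which cannot be told apart from genotype here. Epithelial clusters were named from fixed markers into 10 types without the use of any member, and a name such as goblet-like stands for a cluster's markers. The mixed goblet-Paneth-like type carried markers of both lineages. A cycling cluster with all 12 cycling markers but only 4 of 13 stem markers, with 61 WT and 108 MG53-TG cells, was kept apart from the cycling stem-like cells. Of the 4 goblet-like clusters, 1 was led by Ido1 and by interferon-response genes such as Ddx60 and Rsad2, with 226 WT and 209 MG53-TG cells.

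In the summed epithelium the secretory factors and their ligand Dll1 were higher in the MG53-TG library, whereas the Notch receptors and Hes1 were lower by less than 1.5-fold. A gene was counted as higher or lower when its CPM differed by at least 1.5-fold, among genes with at least 30 UMIs in both libraries together. By this measure 5 of the 10 members were higher, against 6.80% of 14656 genes, and 0 were lower, so that 5 differed in either direction, against 9.80%. Dll1 and Gfi1 were past 1.5-fold under every alternative tried, whereas Atoh1, Spdef and Neurog3 were not past it with median-of-ratios scaling (2 members past it, against 8.74% of genes), as means of single-cell CPM (3 members, against 10.7%) or with a mitochondrial limit of 50% (3 members, against 10.1%), the third member of the latter settings being Notch2, on the lower side. Spdef was also under it without doublet removal, without the 50 genes with most UMIs and over named types alone, at log2 ratios of 0.55 to 0.57. The median log2 ratio of MG53-TG over WT over all genes was 0.09. Gfi1, a zinc finger repressor that acts downstream of Atoh1, had 4.78 CPM in WT against 8.45 CPM in MG53-TG, a 1.77-fold difference (interval 1.58 to 1.98). Dll1, a Delta ligand, had 29.998 and 49.6 CPM, which is 1.65-fold (interval 1.58 to 1.73). Neurog3 had 2.99 and 4.66 CPM (1.56-fold, interval 1.34 to 1.81). The Neurog3 UMIs came from 41 and 42 cells, of which 5 held 36.6% in WT and 34.1% in MG53-TG, and the shares of cells with a Neurog3 UMI after thinning to 1354 UMIs per cell, 0.343% (interval 0.213 to 0.524) and 0.521% (interval 0.334 to 0.774), overlapped. The differences in UMIs were larger than the counting error of UMIs but have no replicate behind them.

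Atoh1 itself, a helix-loop-helix factor of the secretory lineage, had 6415 UMIs in WT against 8467 in MG53-TG, or 60.5 and 94.1 CPM (1.56-fold, interval 1.51 to 1.61). Spdef, an Ets factor of goblet and Paneth cell maturation, had 41.7 and 63.2 CPM (1.51-fold, interval 1.46 to 1.58), just past the threshold. Dll4, the other Delta ligand, had 12.6 and 16.8 CPM (1.33-fold, interval 1.24 to 1.43), the nearest value short of the threshold on the higher side. Jag1, a ligand of the Jagged class, had 3.77 and 4.28 CPM, a log2 ratio of 0.18 whose interval of -0.02 to 0.39 spanned 0. On the receiving side, Notch1 had 7.97 and 6.96 CPM (log2 ratio -0.20, interval -0.35 to -0.04), Notch2 had 2.27 and 1.62 CPM (-0.49, interval -0.79 to -0.18) and Hes1 had 32.1 and 28.4 CPM (-0.18, interval -0.25 to -0.10). Of the members short of 1.5-fold in either direction, Notch2 lay nearest to it. In bulk sums of this kind, more cells of a type and more RNA per cell cannot be told apart.

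Each cell type was then given the same weight in both libraries. The equal weights cover the named types, whereas the sums above also hold the unnamed epithelial cells, 359 in WT and 105 in MG53-TG. Of the UMIs in named types, goblet-like cells held 19.3% in WT and 32.7% in MG53-TG, stem-like cells 6.85% and 4.43%, cycling stem-like cells 19.7% and 13.8%, and Paneth-like cells 12.8% and 6.74%. With each type weighted by its mean share of the 2 libraries, Neurog3 alone of the 10 members stayed past 1.5-fold, against 6.03% of 14603 genes in either direction, with a log2 ratio of 0.90 (interval 0.68 to 1.11). This call was lost, at 0.56, when the members were kept among the variable genes used for clustering. It also rested on few cells, since the Neurog3 UMIs came from 41 cells in WT and 42 in MG53-TG. Stem-like cells held 51.4% and 50.1% of these UMIs, in 15 and 9 cells, which are 4.08% and 5.23% of the type. The interval treats UMIs as independent and leaves out the spread between cells. The log2 ratio of Atoh1 went from 0.64 to 0.06 (interval 0.02 to 0.11), that of Spdef from 0.60 to 0.08 (interval 0.02 to 0.14) and that of Dll4 from 0.41 to -0.06 (interval -0.17 to 0.05). Dll1 and Gfi1 came to 0.20 (interval 0.13 to 0.26) and 0.27 (interval 0.11 to 0.44), but to -0.03 and -0.01 when each library was clustered on its own. Notch1 and Hes1 had the opposite sign, from -0.20 to 0.16 (interval 0.01 to 0.31) and from -0.18 to 0.06 (interval -0.01 to 0.14), while Notch2 came to -0.02 (interval -0.33 to 0.29) and Jag1 to 0.29 (interval 0.08 to 0.50). With each library clustered on its own, Notch1 (0.55), Hes1 (0.31) and Notch2 (0.38) were farther from 0 than this, and Hes1 was -0.01 without the 50 genes with most UMIs.

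**Figure D1:**
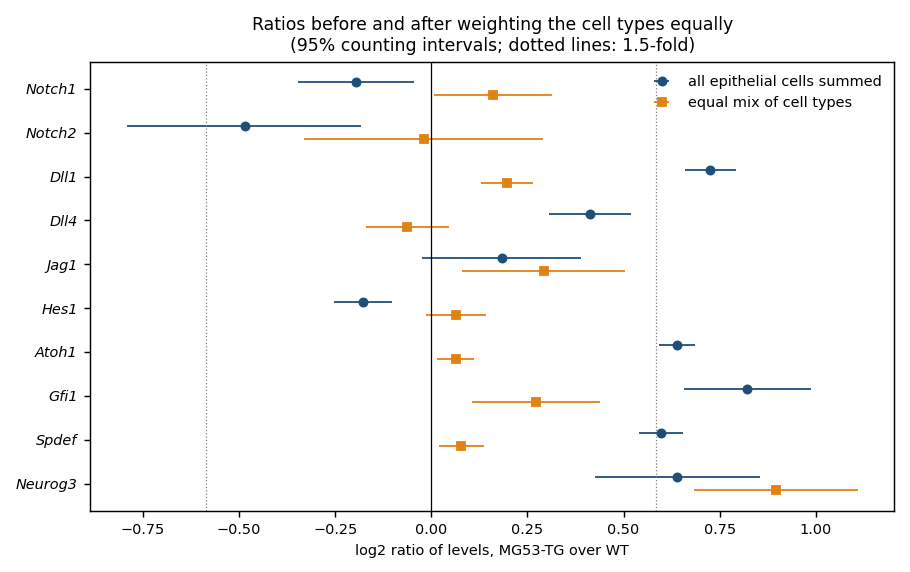
Log2 ratio of MG53-TG over WT (horizontal axis) for each of the 10 genes, in the summed epithelium and after both libraries were given the same mix of cell types, with 95% counting intervals and dotted lines at 1.5-fold. Dll1, Atoh1, Gfi1 and Spdef lie past the line only in the sum, and Neurog3, at 0.64 and 0.90, lies past it both ways, though not under every alternative setting.

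The receptors were highest in stem-like cells in both libraries. Notch1 (chr2:26457903-26516663, minus strand) was highest in stem-like cells, at 30.01 CPM in WT against 36.3 CPM in MG53-TG, followed by cycling stem-like cells at 19.4 and 24.9 CPM (log2 ratio 0.36, interval 0.13 to 0.58). Tuft-like cells came next with 14.9 and 18.4 CPM, within counting error of the cycling stem-like cells. The stem-like and enteroendocrine-like levels did not overlap those of their lower neighbours, and goblet-like cells stood at the other end with 0.467 and 0.175 CPM from 9 and 5 UMIs. Of the Notch1 UMIs, stem-like cells held 24.3% in WT and 22.5% in MG53-TG, and cycling stem-like cells 45.3% and 48.1%. Tuft-like cells held 4.62% in WT and 11.8% in MG53-TG.

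Notch2 (chr3:98013527-98150361, plus strand), the other receptor of the stem cell zone, had 8.05 and 9.53 CPM in stem-like cells and 4.97 and 5.96 CPM in cycling stem-like cells, which overlapped in MG53-TG but not in WT. Early absorptive-like cells came next with 1.66 and 1.43 CPM, and every other named epithelial type was lower. Both receptors were thus highest in the same types, although their ratios within stem-like cells (0.28, interval -0.05 to 0.59, for Notch1 and 0.24, interval -0.40 to 0.87, for Notch2) did not exceed the counting error. Among T cells, where Notch1 also has a known role, it reached 53.3 and 63.2 CPM and Notch2 13.5 and 10.3 CPM.

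**Figure D2:**
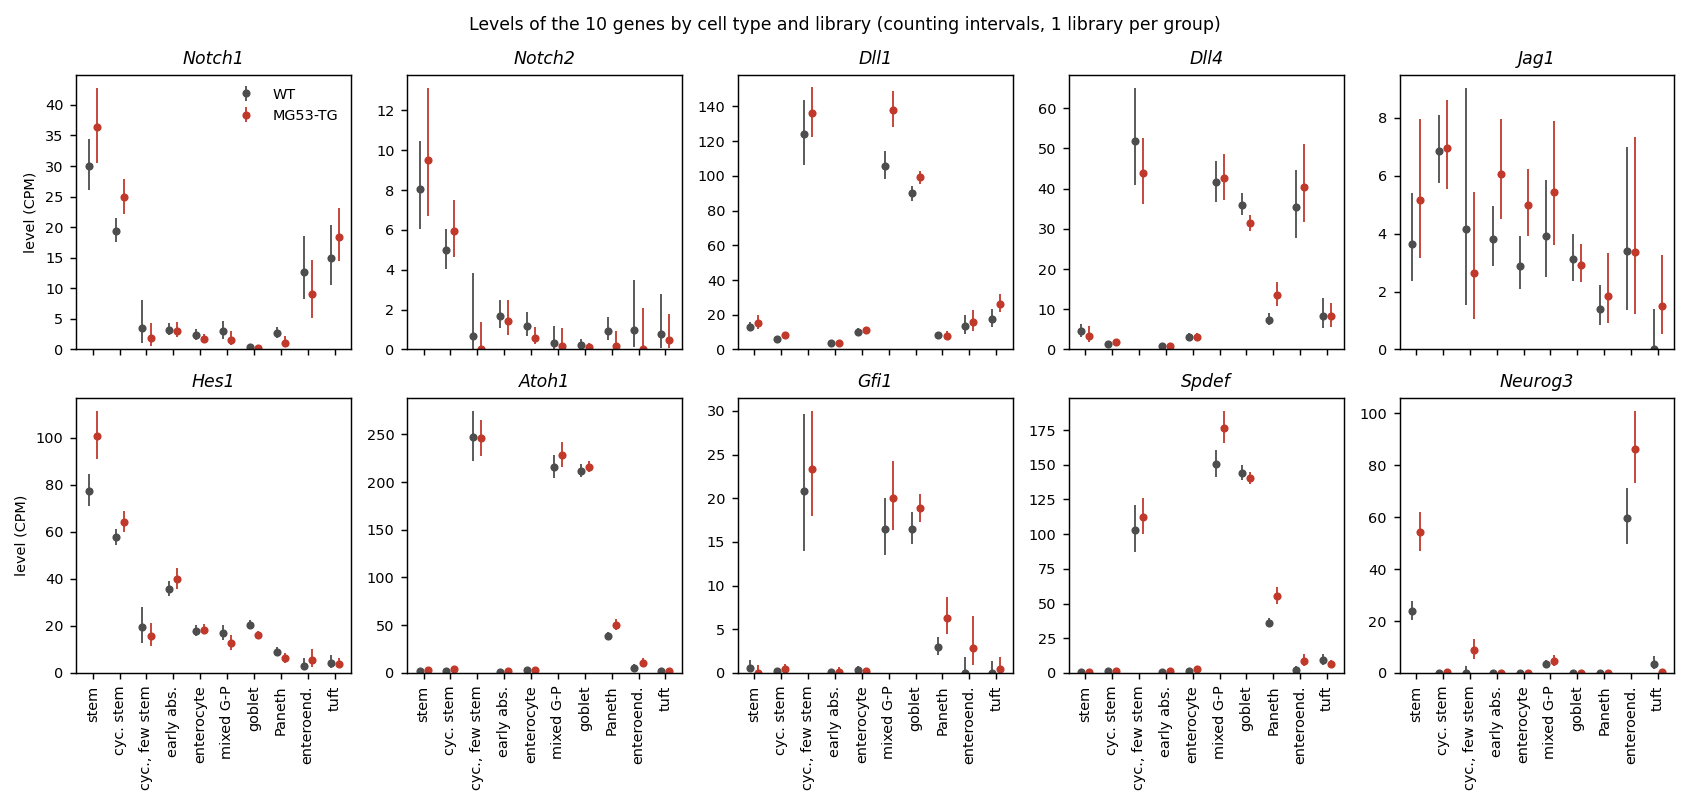
Level in CPM (vertical axes, separate scale per gene, starting at 0) of the 10 genes in the 10 named epithelial types (horizontal axes) in the WT and MG53-TG libraries, with 95% counting intervals. Notch1, Notch2 and Hes1 peak in stem-like cells, Atoh1, Gfi1, Spdef and Dll1 in goblet-like cells and the 2 clusters next to them, and Neurog3 in enteroendocrine-like and stem-like cells.

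The Delta ligands lay on the secretory side. Dll1 (chr17:15367354-15376872, minus strand) was highest in the cycling cluster with few stem markers (124 CPM in WT against 136 CPM in MG53-TG), in mixed goblet-Paneth-like cells (106 and 138 CPM) and in goblet-like cells (89.9 and 99.1 CPM). The next type, tuft-like cells, had 17.6 and 26.4 CPM, and early absorptive-like cells had 3.60 and 3.92 CPM. The first and the second of these types overlapped in their intervals, and goblet-like cells lay below both, in each library. Within types Dll1 was higher in MG53-TG by a log2 ratio of 0.14 in goblet-like cells (interval 0.05 to 0.23), 0.38 in mixed goblet-Paneth-like cells (interval 0.23 to 0.54) and 0.58 in tuft-like cells (interval 0.07 to 1.12). The ratio in mixed goblet-Paneth-like cells was -0.19 at a finer clustering resolution. Of the goblet-like clusters the Ido1-led one had the ratio farthest from 0, with 24.96 and 53.6 CPM (log2 ratio 1.102, interval 0.61 to 1.62), while the largest cluster had 108 CPM in both libraries.

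Dll4 (chr2:119325784-119335962, plus strand) shared the secretory types with Dll1 but was also an enteroendocrine gene. It had 51.9 and 43.8 CPM in the cycling cluster with few stem markers, 41.5 and 42.6 CPM in mixed goblet-Paneth-like cells, 36.0 and 31.4 CPM in goblet-like cells and 35.4 and 40.5 CPM in enteroendocrine-like cells. Neighbours in the order of these 4 types overlapped in both libraries, and no other type exceeded 13.6 CPM. In goblet-like cells Dll4 was lower in MG53-TG, at a log2 ratio of -0.20 (interval -0.35 to -0.06), where Dll1 was higher. The gene Gm14207 lies beside Dll4 and overlaps the 250 bases before its start, Dll1 overlaps A930024N18Rik and Gfi1 overlaps A430072P03Rik. Whether counting used strand is not stated in the sources used here, so reads of these pairs may not be told apart.

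Jag1 (chr2:137081456-137116644, minus strand) differed from the Delta ligands in being spread over all lineages. Its level was between 1.41 and 6.85 CPM in 9 of the 10 types in WT and between 1.49 and 6.95 CPM in all 10 in MG53-TG, with 0 UMIs in WT tuft-like cells and in the T cells of both libraries. Cycling stem-like cells had the highest level in both libraries, 6.85 and 6.95 CPM, but the intervals of neighbouring types in the order overlapped throughout. WT droplets under 100 UMIs had 3.35 CPM of Jag1 from 20 UMIs, within the range over the types, and the part of free RNA in this spread was not tested. Jag1 was past 1.5-fold in both absorptive types, the only one of 6 members to be so in early absorptive-like cells, against 3.90% of genes in that direction, and with Spdef 1 of 2 among 7 members in enterocyte-like cells, against 3.24%. In early absorptive-like cells it had 55 and 51 UMIs, or 3.81 and 6.06 CPM (log2 ratio 0.67, interval 0.09 to 1.24), and in enterocyte-like cells 42 and 75 UMIs, or 2.89 and 4.99 CPM (0.78, interval 0.22 to 1.37). Under other settings Notch2 reached -0.79 in early absorptive-like cells, and Atoh1 and Notch1 reached -0.81 and -0.63 in enterocyte-like cells.

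Hes1 (chr16:30064384-30067796, plus strand), the Notch target that represses Atoh1, was also highest in stem-like cells, but tuft-like and enteroendocrine-like cells, next in order for Notch1, were its lowest types. Stem-like cells had 77.6 CPM in WT against 101 CPM in MG53-TG, a log2 ratio of 0.38 (interval 0.19 to 0.57). Cycling stem-like cells had 57.7 and 64.4 CPM (0.16, interval 0.03 to 0.29) and early absorptive-like cells 35.8 and 40.0 CPM (0.16, interval -0.04 to 0.36). These 3 types held the first 3 places in both libraries and did not overlap in their intervals. In goblet-like cells the direction was the other way, with 20.5 CPM in WT against 16.1 CPM in MG53-TG (-0.35, interval -0.55 to -0.15), and the 4 goblet-like clusters each had this sign, with ratios from -0.49 to -0.06. Mixed goblet-Paneth-like and Paneth-like cells had ratios of -0.43 and -0.53, with intervals that spanned 0. The lowest levels were those of enteroendocrine-like cells, 2.91 and 5.63 CPM from 6 and 10 UMIs, and of tuft-like cells, 4.21 and 3.98 CPM. WT droplets under 100 UMIs, which hold free RNA, had 44.2 CPM of Hes1 and 41.3 CPM of Atoh1. The part of free RNA in the low levels of either gene was not tested. The MG53-TG table holds no such droplets.

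Atoh1 (chr6:64729125-64731245, plus strand) marked the same 3 types as Dll1. It had 247 CPM in WT against 246 CPM in MG53-TG in the cycling cluster with few stem markers, 216 and 229 CPM in mixed goblet-Paneth-like cells and 212 and 216 CPM in goblet-like cells. The intervals of neighbouring types in this order overlapped. The log2 ratio in the cycling cluster rested on the clustering and was 1.1001 at a finer resolution and -2.02 with each library clustered on its own. Paneth-like cells stood apart from both sides with 38.8 and 50.7 CPM, and no other epithelial type exceeded 10.1 CPM. The goblet-like level thus differed by a log2 ratio of 0.03 (interval -0.03 to 0.09) on 4086 and 6189 UMIs, a difference not detectable at this depth, and 63.7% of WT and 73.1% of MG53-TG Atoh1 UMIs came from that type. After thinning to 1354 UMIs per cell, an Atoh1 UMI was found in 350 of 1385 goblet-like cells of WT, a share of 25.3% (interval 23.0 to 27.6), against 379 of 1663 of MG53-TG, a share of 22.8% (interval 20.8 to 24.9). Among T cells, which should lack Atoh1, the shares were 0.174% and 0.439%. Median depths before thinning were 14459 and 17990 UMIs in goblet-like cells and 2832.5 and 3571 UMIs in T cells, and unthinned shares of goblet-like cells were 86.1% and 89.7%.

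Gfi1 and Spdef had much the same pattern. Gfi1 (chr5:107716657-107726036, minus strand) had 20.8 and 23.4 CPM in the cycling cluster with few stem markers, 16.5 and 20.1 CPM in mixed goblet-Paneth-like cells and 16.5 and 18.9 CPM in goblet-like cells (log2 ratio 0.20, interval -0.01 to 0.40). In the absorptive, stem-like and tuft-like types Gfi1 had at most 6 UMIs per type and library. Gfi1 is also known from lymphocytes, and T cells had 27.0 and 40.2 CPM. Spdef (chr17:27714352-27728955, minus strand) had 151 and 177 CPM in mixed goblet-Paneth-like cells (0.23, interval 0.10 to 0.36), 144 and 141 CPM in goblet-like cells (-0.04, interval -0.11 to 0.03) and 103 and 112 CPM in the cycling cluster with few stem markers. Spdef was thus lower in that cycling cluster than in goblet-like cells, whereas Atoh1, Gfi1 and Dll1 were highest there in WT.

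**Figure D3:**
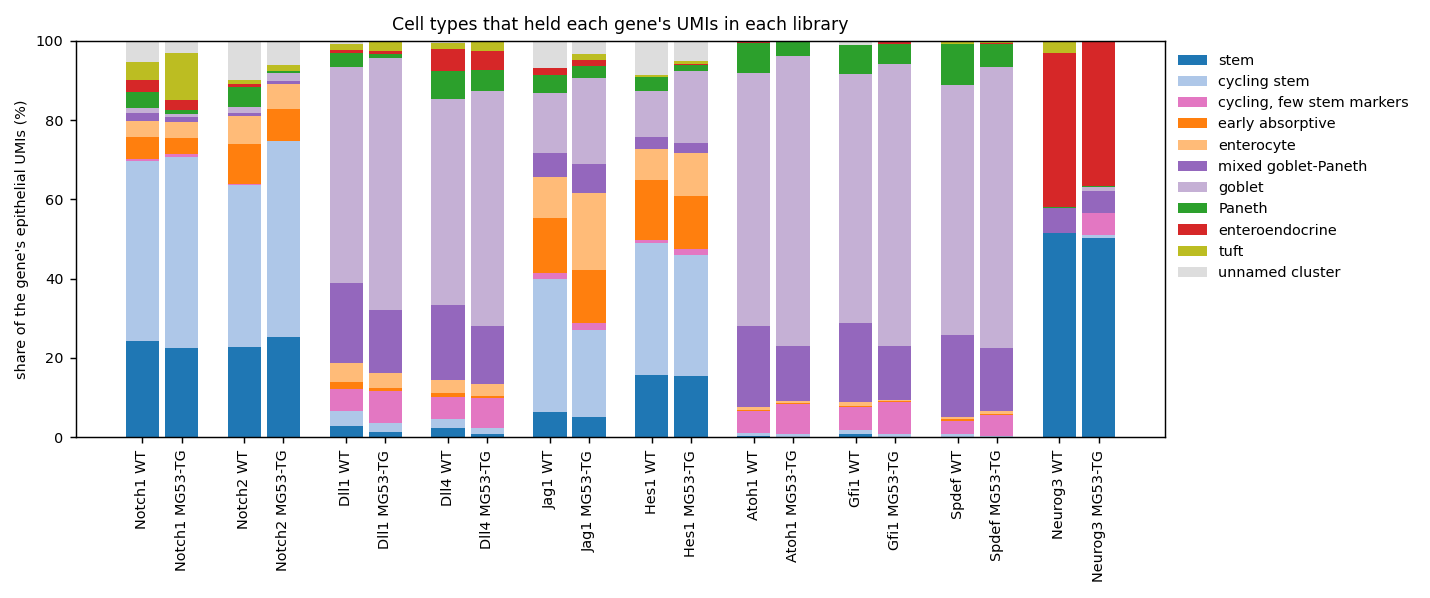
Share of each gene's epithelial UMIs (vertical axis, percent) held by each cell type, with a WT and an MG53-TG bar for each of the 10 genes. Goblet-like cells hold the largest part of Dll1, Dll4, Atoh1, Gfi1 and Spdef, a part that is larger in MG53-TG (73.1% against 63.7% for Atoh1), and stem-like cells hold 51.4% and 50.1% of Neurog3.

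Neurog3 (chr10:62133090-62134763, plus strand), the factor of enteroendocrine commitment, was detected in few cells. A Neurog3 UMI was found in 41 of 6119 epithelial cells in WT (0.670%) and in 42 of 4606 in MG53-TG (0.912%), without thinning. Enteroendocrine-like cells accounted for 18 and 22 of these cells and stem-like cells for 15 and 9. None was an enterocyte-like, early absorptive-like or T cell in either library. Enteroendocrine-like cells had 59.7 CPM in WT against 86.1 CPM in MG53-TG (log2 ratio 0.53, interval 0.18 to 0.88) and stem-like cells 23.9 and 54.1 CPM (1.18, interval 0.88 to 1.48), which made Neurog3 the only one of 7 members past 1.5-fold in stem-like cells in the clustering used here, against 8.50% of genes in either direction. With each library clustered on its own Notch1 (0.86), Notch2 (0.61), Hes1 (0.75) and Dll1 (1.0986) were also past it there. The stem-like ratio of Dll1 was 0.65 at a finer resolution and -1.01 with the members among the variable genes. This value rests on few cells, since the 5 cells with most Neurog3 UMIs held 60.7% of the stem-like UMIs in WT and 66.2% in MG53-TG. Without them the levels were 9.48 and 18.8 CPM (log2 ratio 0.99), an alternative chosen after the data were seen. When each library was clustered on its own the Neurog3 ratio was 5.27. In the cycling cluster with few stem markers Neurog3 had 0 UMIs in WT against 23 in MG53-TG, all from 2 cells.

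The stem-like cells with a Neurog3 UMI had more Dll1 than the other stem-like cells. Dll1 had 81.7 CPM (24 UMIs) in the 15 such cells of WT against 9.94 CPM in the rest, and 154 CPM (35 UMIs) against 6.57 CPM in MG53-TG. Dll4 had 23.8 against 3.67 CPM in WT, and in MG53-TG 8.81 against 3.01 CPM, with overlapping intervals on 2 UMIs. Jag1 overlapped in both libraries, with 6.81 against 3.52 CPM and 4.403 against 5.20 CPM. The enteroendocrine factor Insm1 had 242 against 0.459 CPM in WT and 348 against 0.274 CPM in MG53-TG, and Neurod1, a direct target of Neurog3, had 126 against 0.612 CPM and 391.9 against 2.46 CPM. Hes1 had 68.1 CPM (interval 41.6 to 105) against 78.0 CPM in WT, which overlap, and 35.2 CPM (interval 15.2 to 69.4, 8 UMIs) against 105 CPM in MG53-TG, which do not. Markers of the stem list summed to 915 against 1137 CPM in WT and to 405 against 1642 CPM in MG53-TG, those of the enteroendocrine list to 381 against 60.6 CPM and to 198 against 284 CPM, and those of the goblet list to 9015 against 1030 CPM and to 8616 against 966 CPM. Median depths were 10767 against 17208 UMIs and 18272 against 20321 UMIs. The part of these markers and of depth was not tested. The Dll1 level of stem-like cells also rested on few cells, with a log2 ratio of 0.22 over all cells and -0.73 without the 5 cells with most Dll1 UMIs in each library.

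Within the other types few members passed 1.5-fold. In goblet-like cells 0 of 7 members with enough UMIs did so, against 6.11% of genes in either direction, and none passed it there under any alternative tried. In the settings used here, mixed goblet-Paneth-like cells (0 of 8, against 7.31%), the cycling cluster with few stem markers (0 of 6, against 10.1%), enteroendocrine-like cells (0 of 4, against 10.5%) and tuft-like cells (0 of 4, against 9.60%) also had none. Under other settings the ratios in mixed goblet-Paneth-like cells reached -0.75 for Hes1, 0.74 for Jag1 and 0.66 for Gfi1 and Neurog3, and those in enteroendocrine-like cells 0.69 for Neurog3 and -0.70 for Notch1. In cycling stem-like cells Atoh1 was past the threshold, 1 of 8 members, against 3.22% of genes in that direction, with 50 UMIs in each library, or 2.54 and 4.14 CPM (log2 ratio 0.71, interval 0.11 to 1.30). Without the 5 cells with most Atoh1 UMIs in each library its ratio was 0.11, so the difference rested on few cells, and it was 0.25 as a mean of single-cell CPM and 0.26 at a coarser resolution. Under other settings Dll1 reached 0.73 in cycling stem-like cells, and Spdef was between -0.88 and 0.88. Spdef was past the threshold in enterocyte-like cells with 25 and 42 UMIs (0.70, interval -0.05 to 1.47), at levels of 1.72 and 2.79 CPM, where WT droplets under 100 UMIs had 28.3 CPM. This call was lost as a mean of single-cell CPM (0.21), at a finer resolution (0.40) and with each library clustered on its own (0.42).

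Paneth-like cells differed most. There Dll4, Gfi1 and Spdef were past 1.5-fold on the higher side and Notch1 on the lower, 4 of 7 members, against 10.9% of genes on the higher side, 10.8% on the lower and 21.7% on either, the highest background of all types. Spdef had 36.0 CPM in WT against 55.6 CPM in MG53-TG (log2 ratio 0.63, interval 0.42 to 0.83), Gfi1 2.97 and 6.27 CPM (1.08, interval 0.38 to 1.77) and Dll4 7.43 and 13.6 CPM (0.87, interval 0.42 to 1.31). The Dll4 ratio was under the threshold at a finer resolution, with the members among the variable genes (0.47 in both) and with each library clustered on its own (0.54). Atoh1 had a ratio of 0.38 (interval 0.17 to 0.60) in the same cells. WT droplets under 100 UMIs had 5.69 CPM of Gfi1 and 9.37 CPM of Dll4, above the WT Paneth-like levels, and 28.3 CPM of Spdef, below it. The part of free RNA in these ratios was not tested. Median depth was 41751 UMIs in WT against 28988 in MG53-TG Paneth-like cells, the only named type that was shallower in MG53-TG, and its part in these ratios was not tested. At a finer clustering resolution the ratios of Spdef, Gfi1 and Atoh1 were 0.41, 0.31 and -0.06, below the threshold, and with each library clustered on its own they were 0.27, 0.27 and -0.31. Notch1 had 34 UMIs in WT against 6 in MG53-TG (-1.39, interval -2.93 to -0.12), of which 5 cells held 18 in WT, and its mean over single cells had the opposite sign.

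**Figure D4:**
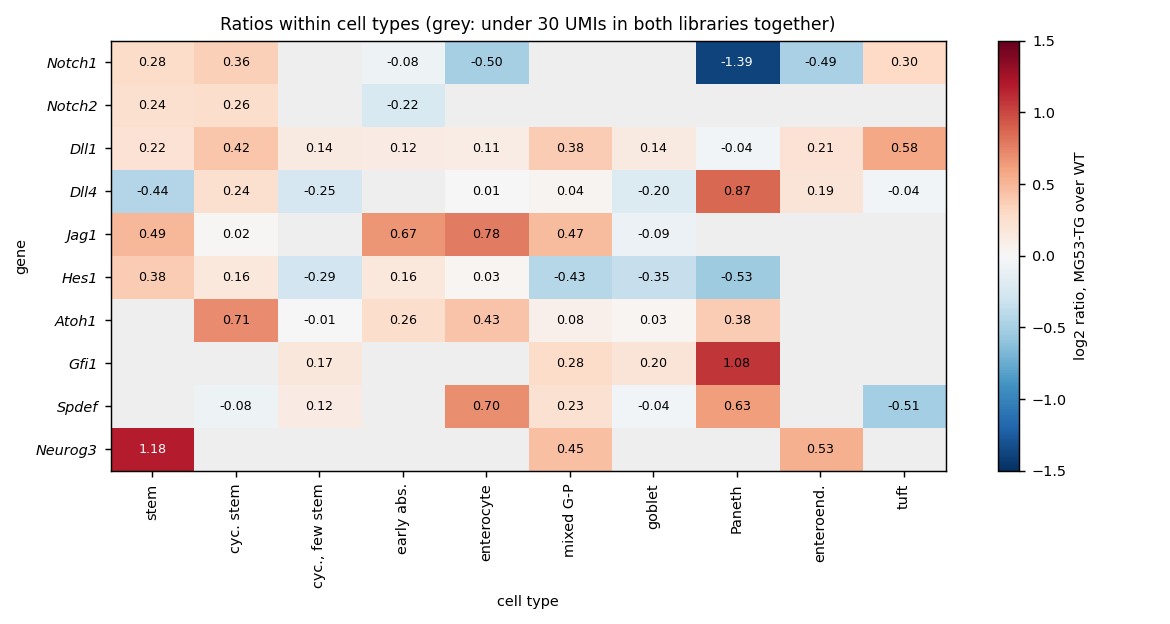
Log2 ratio of MG53-TG over WT (colour) for the 10 genes (rows) in the 10 named types (columns), with grey cells where a gene had under 30 UMIs in both libraries together. Goblet-like cells are near 0 for Atoh1 (0.03) and Spdef (-0.04), and the farthest values above 0 are those of Neurog3 in stem-like cells (1.18) and Gfi1 in Paneth-like cells (1.08).

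The members were then followed along maturation. Cells of a lineage were put into 5 bins of about equal cell number over both libraries by the share of their UMIs from maturation genes that hold no member, and CPM was computed over the UMIs of all other genes. From the first to the last bin of goblet-like and mixed goblet-Paneth-like cells, the axis genes went from 7.31% to 42.0% of UMIs in WT and from 8.03% to 38.5% in MG53-TG. Along this axis Dll1 went from 124 to 73.0 CPM in WT and from 154 to 97.6 CPM in MG53-TG, while Atoh1 ended higher than it began, at 377 CPM from 223 CPM in WT and at 350 CPM from 260 CPM in MG53-TG. Dll4 also ended higher than it began, at 73.4 CPM from 40.0 CPM in WT and at 60.5 CPM from 44.7 CPM in MG53-TG. Spdef went from 168 to 212 CPM in WT and from 211 to 191 CPM in MG53-TG, where the intervals of the first and last bin overlapped in MG53-TG but not in WT. Hes1 was highest in the most mature bin, with 49.2 CPM in WT against 32.5 CPM in MG53-TG, against 21.2 and 16.1 CPM in the first bin. Part of these directions rested on leaving the axis genes out of the total, as an alternative added after the data were seen showed. Per 1e6 UMIs of all genes Atoh1 went from 207 to 219 in WT and from 239 to 215 in MG53-TG. On this scale Dll4 went from 37.1 to 42.5 in WT and from 41.1 to 37.2 in MG53-TG, and Spdef went down in both libraries, from 156 to 123 and from 194 to 117. Dll1, from 115 to 42.3 and from 142 to 60.0, and Hes1, from 19.7 to 28.5 and from 14.8 to 19.99, kept their directions. The median depth of the last bin was 10192 UMIs in WT and 14540 UMIs in MG53-TG, the lowest of the 5 bins in each library, and the part of depth was not tested.

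Along the absorptive axis, from early absorptive-like to mature enterocyte-like cells, Hes1 went down in both libraries, from 36.6 to 9.52 CPM in WT and from 39.8 to 18.5 CPM in MG53-TG. The last bins did not overlap in their intervals (6.63 to 13.2 and 14.8 to 23.0 CPM), at median depths of 7129 and 19275 UMIs. Dll1 went up, from 4.52 to 17.1 CPM and from 3.91 to 12.1 CPM. WT droplets under 100 UMIs had 29.6 CPM of Dll1, above every bin of this axis, and the part of free RNA and of depth was not tested. In enteroendocrine-like cells Neurog3 was highest in the least mature bin, with 214 CPM in WT against 262 CPM in MG53-TG, and had 3.15 and 7.55 CPM in the last. The first and last bins of Dll4, 42.8 and 18.9 CPM in WT and 49.0 and 30.2 CPM in MG53-TG, overlapped in their intervals.

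**Figure D5:**
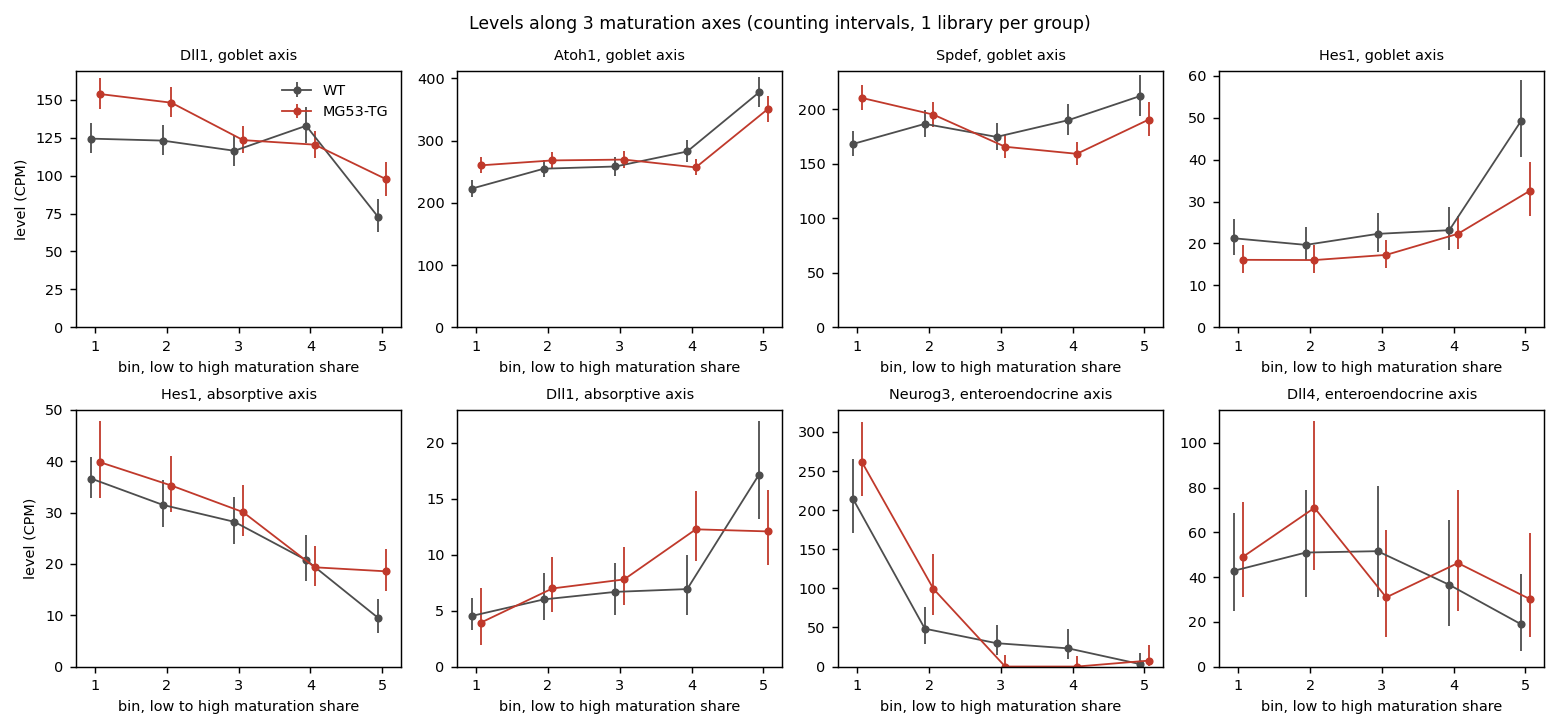
Level in CPM (vertical axes, starting at 0) in 5 bins of maturation share from low to high (horizontal axes) for selected genes along the goblet, absorptive and enteroendocrine axes, in WT and MG53-TG with 95% counting intervals. In both libraries Dll1 ends lower and Atoh1 higher along the goblet axis (the latter not in MG53-TG per 1e6 UMIs of all genes, where Atoh1 goes from 239 to 215), Hes1 ends lower along the absorptive axis and Neurog3 is highest in the first enteroendocrine bin.

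Co-detection was measured in single cells thinned to 1354 UMIs. Of the epithelial cells with an Atoh1 UMI, 1 of 525 in WT (0.190%, interval up to 1.06) and 1 of 541 in MG53-TG (0.185%, interval up to 1.03) also had a Notch1 UMI, against 1.09% (interval 0.835 to 1.40) and 1.01% (interval 0.725 to 1.37) of the other cells. These intervals overlapped in both libraries. A Hes1 UMI was found in 3.81% of cells with Atoh1 and 3.86% of cells without it in WT, and in 1.48% (interval 0.641 to 2.89) and 3.35% (interval 2.81 to 3.95) in MG53-TG, but over 10 thinnings the first of these shares ranged from 1.53% to 3.81% in WT and from 1.45% to 3.80% in MG53-TG. Cells with Atoh1 more often had a Dll1 UMI, 12.6% against 3.88% in WT and 12.4% against 6.45% in MG53-TG, and a Spdef UMI, 15.6% against 4.86% and 16.3% against 6.81%. Over the 10 thinnings the Dll1 share of cells with Atoh1 ranged from 9.09% to 12.6% in WT and from 9.95% to 14.2% in MG53-TG. The Spdef share ranged from 15.2% to 20.2% in WT and from 16.2% to 19.0% in MG53-TG. Within goblet-like cells the thinned shares overlapped in their intervals, as Dll1 was found in 10.9% of cells with and 10.9% of cells without an Atoh1 UMI in WT and in 13.7% and 13.3% in MG53-TG, and Spdef in 15.4% and 17.6% and in 14.8% and 15.7%. Without thinning the shares were apart, 59.9% and 39.6% for Dll1 in WT and 72.2% and 49.4% in MG53-TG, and 79.0% and 56.8% and 85.7% and 51.7% for Spdef, and these shares are not matched for depth. Over all epithelial cells without thinning, Hes1 was found in 23.0% of cells with and 33.2% of cells without Atoh1 in WT, and in 23.0% and 32.8% in MG53-TG. Notch1 was found in 3.31% and 13.1% in WT and in 1.42% and 14.5% in MG53-TG, also not matched for depth. These shares describe cells with a UMI at this depth, not cells that express a gene.

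Across the 10 named types in both libraries, the genes most like each member were found by Pearson's r of log2(CPM + 1) over 20 points, among 12787 genes with at least 100 UMIs. The points of a library share its depth and its free RNA, so r is a description. Atoh1 and Gfi1 were each among the 3 genes most like the other (r = 0.98), with Rasd2 in both lists, Galnt5 closest to Atoh1 (r = 0.99) and Ccl9 also close to Gfi1 (r = 0.98). Spdef was most like Creb3l4 (r = 0.99), a membrane-bound transcription factor of secretory cells, then Tpsg1 and Cracr2a, and had r = 0.96 with Atoh1 and -0.71 with Notch2. Neurog3 was most like Insm1 (r = 0.94), Slc39a2 and Gfra3, Dll1 like Mllt3 (r = 0.94), Scnn1a and Herpud1, and Dll4 like its neighbour Gm14207 (r = 0.98), Mcf2l and Tecpr1. The receptor Notch1 was closest to Kcnq1ot1 (r = 0.96), Cttnbp2 and Kcnq1, Notch2 to Jaml (r = 0.93), Nr2e3 and Acsm3, and Hes1 to Aldh1b1 (r = 0.94), Timm8a1 and Gm19696. Jag1 had the weakest likeness, with r = 0.85 for Eogt, an enzyme that adds a sugar to Notch-like proteins, followed by Xpot and Trim2.

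A list of 66 other genes of the pathway was compared in the summed epithelium. Of the 60 with enough UMIs, 11 were past 1.5-fold on the higher side and 1 on the lower, against 6.80% of all genes on the higher side and 9.80% on either, and their median log2 ratio was 0.27, where that of all genes was 0.09. With equal type weights 5 were higher and 1 was lower, against 3.27% and 2.76% of all genes, with a median of 0.14 where that of all genes was 0.05. The secretory factors made up 5 of the 11, namely Klf4, a goblet cell factor (171 and 279 CPM, log2 ratio 0.71, equal weights 0.11), Creb3l1 (0.70, equal weights 0.21), Creb3l4 (0.66, equal weights 0.12), Cbfa2t3 (0.65, equal weights 0.23) and Bhlha15 (0.62, equal weights 0.59). Bhlha15, which encodes the secretory cell factor MIST1, was the only secretory factor on the list that stayed past 1.5-fold with equal weights. It was only just past it, at 0.5897, and no interval or alternative setting is given for this value. In MG53-TG its highest level, 51.0 CPM, was in Paneth-like cells, the type with the highest background. Pou2f3, the tuft cell factor, had 3.99 and 7.86 CPM (0.98, equal weights 0.18), and Neurl1a, a ubiquitin ligase of ligand endocytosis with its highest level in tuft-like cells, had 0.61 (equal weights -0.09).

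The remaining genes past the threshold had few UMIs. Mfng, a glycosyltransferase of Notch receptors, had 28 and 39 UMIs (log2 ratio 0.72, equal weights 0.72), Numbl, of the Numb family of Notch inhibitors, 20 and 28 (0.72, equal weights 0.71), the Notch target Hes7 27 and 36 (0.65, equal weights 0.80), Neurod2, an enteroendocrine factor, 52 and 70 (0.67, equal weights 0.79) and Maml2, a coactivator of cleaved Notch, 33 and 15 (-0.90, equal weights -0.95). Of these 5 genes, Neurod2 alone had an interval in the sum that did not span 0 (0.13 to 1.21). For the roles with no gene past the threshold, the gene with most UMIs was Notch4 among the receptors (1.16 and 1.42 CPM, 0.30), Jag2 among the ligands (1.19 and 1.68 CPM, 0.50) and Psenen, a subunit of the receptor-cutting gamma-secretase (165 and 174 CPM, 0.08). Among the Notch targets, Olfm4 and Nrarp were chosen here after their values were seen. Olfm4, a gene of stem cells, had 334 and 332 CPM in the sum (-0.01, interval -0.03 to 0.01), and 2381 CPM in WT against 3779 CPM in MG53-TG in stem-like cells. Nrarp, which encodes a feedback inhibitor of Notch, had 4.32 and 3.67 CPM in the sum (-0.24, interval -0.44 to -0.03, equal weights 0.06).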

How the data were processed

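Crypt cells of 1 WT and 1 MG53-TG library were sorted and sequenced as above. The deposited values are raw UMI counts per gene and barcode, which the authors made with Cell Ranger 4 (WT, empty droplets included) and 6.0.1 (MG53-TG), per the file headers, on mm10, per the submitters' processing notes. Whether counting used strand is not given in the sources used here. No file held the authors' own comparisons.

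Barcodes under 1354 UMIs or 200 genes, or over 25% mitochondrial UMIs, were left out. Scrublet's own threshold marked 1 WT and 2 MG53-TG cells, so a share of top-scored cells that grows with the cell number was removed instead (438 and 212). Both libraries were clustered together with scanpy 1.11.5 (30 principal components, 15 neighbours, Leiden resolution 1, 26 clusters). From 2000 variable genes the members, the genes of the pathway list and Trim72 were first taken out. The alternative that kept the members among the variable genes also kept the pathway list. Types were named from marker lists by rules set after the clusters had been seen. UMIs were summed per library and type and divided by the total (CPM). Intervals are exact Poisson for levels, conditional binomial for ratios and Clopper-Pearson for shares, from scipy 1.17.1 under Python 3.11.15 with numpy 2.4.6 and pandas 2.3.3. With 1 library per group no test across libraries was possible and no p-value is given. All 10 members were named, with for each the 3 genes most like it and, per role of the pathway list, the genes past 1.5-fold or else the gene with most UMIs. The members and lists were chosen with earlier results of these data known. The summing and ratio steps were tested on simulated data. Alternatives covered normalization, low-count filters, cell filters, doublets and clustering.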

Additional observations from a re-analysis of the deposited data

How the results depend on the processing

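No paired analysis was possible because each group has 1 library, and no replicate could be left out. For Atoh1 in the summed epithelium, the log2 ratio of 0.64 was 0.55 with median-of-ratios scaling, 0.55 as a mean of single-cell CPM and 0.51 with a mitochondrial limit of 50%. Hes1 was at -0.27 with median-of-ratios scaling. The 5 members past 1.5-fold became 2 (Dll1 and Gfi1) with median-of-ratios scaling, 3 as a mean of single-cell CPM and 3 with the 50% limit, the last 2 with Dll1, Gfi1 and a lower Notch2. The share of all genes past 1.5-fold, 9.80%, was 8.74%, 10.7% and 10.1% in these settings, 28.1% with no gene minimum and 6.34% with a minimum of 100 UMIs. With equal type weights Atoh1, at 0.06, was 0.014 with median-of-ratios scaling, 0.0046 with a mitochondrial limit of 10%, -0.0034 with a UMI minimum of 500 and -0.23 with each library clustered on its own. Neurog3 ranged from 0.56, under 1.5-fold, with the members among the variable genes to 1.36 with each library on its own. In the cycling cluster with few stem markers the ratios of Dll1, Dll4, Atoh1, Gfi1 and Spdef were between 0.88 and 1.44 at resolution 2 and between -2.10 and -1.72 with each library on its own. Notch1 in Paneth-like cells, at -1.39, was 0.77 as a mean of single-cell CPM. The causes were not tested. Of the 706 values under alternatives, 628 moved by less than their counting interval, 77 by more and 1 took the opposite sign past it. Leaving out the 5 cells with most UMIs was chosen after seeing the data. Of the members, Notch2 had the fewest UMIs, 241 and 146.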
